A study of Homo sapiens with 4 samples.

Results

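The transcripts of NF-kappaB subunits and of NF-kappaB inhibitors were examined in SUM159 cells with and without targeting of NOS2. The 10 genes were chosen by name, with earlier results of these data known, of 57500 genes counted. They are the 5 genes that encode the subunits (NFKB1, NFKB2, RELA, RELB and REL) and 5 genes that encode inhibitors (NFKBIA, NFKBIB, NFKBIE, NFKBIZ and TNFAIP3). All 10 were among the 22511 genes that passed the filter on low counts. In every one of the 3 NOS2KO clones all 10 transcripts were below the parental level, as were 30.5% of the 22511 genes. The 5 inhibitors and the subunits NFKB1, NFKB2 and RELB were lower by a log2 fold change between -1.15 and -2.25, while RELA and REL differed least, with -0.50 each. RELA made up 24.5% of the subunit transcripts per kilobase in the parental library and 37.6% to 45.7% in the clones.

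SUM159 is a triple-negative breast cancer cell line with metaplastic features, and NOS2 encodes the inducible nitric oxide synthase, iNOS. The study compared parental SUM159 cells (genotype Parental Control, 1 library) with 3 clones of the genotype NOS2KO (1 library each, numbered 1, 5 and 6). The clones came from cells that received a NOS2 double nickase plasmid, were selected with puromycin and were then picked by their iNOS protein and their nitrite and nitrate, and the parental library is not described as having passed through transfection, selection or cloning. The effect of the genotype and that of selecting a single cell clone cannot be told apart here. The labels name no cytokine or drug treatment of the cultures.

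NF-kappaB is a family of dimeric transcription factors that inhibitors of the IkappaB family hold in the cytoplasm. Signals from cytokine and pattern recognition receptors lead the IkappaB kinase complex to mark these inhibitors for destruction, and the freed dimers enter the nucleus. RELA, RELB and REL carry a transactivation domain, while NFKB1 and NFKB2 encode precursors that are processed to p50 and p52. Many members are themselves targets of NF-kappaB, and the resynthesis of IkappaB alpha and of A20 is the textbook negative feedback of the pathway.

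The kappaB site, the DNA element that these dimers bind, is shown for the promoters of the members because feedback on these genes is described through it. RefSeq promoter windows on GRCh38.p14, from 250 bases before to 50 bases after a transcription start, were held for 8 of the 10 members in 14 windows, and RELB and NFKBIE had no entry. Both strands were searched for the kappaB consensus of 10 bases (GGG, a purine, any 2 bases, 2 pyrimidines and CC), and overlapping matches were kept. A match was present in 9 of the 14 windows and in 7 of the 8 members, RELA being the member without one. A match was held by 11.3% of all 35116 windows, and by 13.3% of all 27305 genes in any window. The stretches below are written 5′ to 3′ on the strand of the gene, with the bases of the matches in capitals. NFKBIA is given with all 250 bases before its start, and the others as the site with its neighbouring bases.
NFKBIA, chr14:35404750-35404999, minus strand: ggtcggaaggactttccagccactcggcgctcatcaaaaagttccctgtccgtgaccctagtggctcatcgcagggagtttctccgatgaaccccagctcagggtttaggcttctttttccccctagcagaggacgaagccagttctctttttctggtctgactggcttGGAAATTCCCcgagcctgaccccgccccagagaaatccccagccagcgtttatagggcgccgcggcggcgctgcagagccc
NFKB1, chr4:102501300-102501329, plus strand: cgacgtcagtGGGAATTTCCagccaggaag
NFKBIZ, chr3:101827742-101827801, plus strand: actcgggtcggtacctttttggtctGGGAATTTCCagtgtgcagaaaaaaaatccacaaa
NFKBIB, chr19:38899932-38899960, plus strand: ggcgtggtgGGGAATTTCCCgcagggcgg
REL, chr2:60881518-60881546, plus strand: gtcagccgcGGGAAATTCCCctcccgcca
NFKB2, chr10:102394462-102394490, plus strand: aaacgtcatGGGAATTCCCCcctccgggg
TNFAIP3, chr6:137867188-137867217, plus strand: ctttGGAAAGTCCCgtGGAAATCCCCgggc

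An identical run of 10 bases, GGGAATTTCC, was found on either strand in windows of 5 members (NFKB1, REL, NFKBIA, NFKBIB and NFKBIZ), against 51 of the 35116 windows (0.145%). This sequence was singled out after the matches had been seen. TNFAIP3 held 2 matches whose starts lay 67 and 55 bases before its transcription start, and NFKB2 held matches before 2 of its 3 starts. In GENCODE 29, the printed stretches of NFKBIA and NFKBIZ lie outside annotated exons, and those of NFKB2 and TNFAIP3 lie within exons of their own gene. The printed stretches of NFKBIB and REL overlap exons of their own gene in part. NFKB2 and NFKBIZ each have another stretch with matches before a different start, which is not printed. That of NFKBIZ lies within an exon of its own gene, and that of NFKB2 lies outside annotated exons. Also not printed are another NFKB2 match in the window of its printed stretch and the NFKBIB matches after its start. Of the 30 bases of the NFKB1 stretch 21 lie in exons of AF213884.3 or NFKB1. A match is a description of the sequence, and binding was not measured.

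The 4 libraries held 90467395 to 122171287 counts on genes. The targeted gene, NOS2, had 2 counts in parental cells against 3 (clone 1), 18 (library labelled clone 5) and 1 (clone 6), so that its mRNA does not check the labels, and the library labelled clone 5 is named in that way throughout. Among the receptor genes that define a triple-negative line, PGR had at most 3 counts and ESR1 at most 0.741 CPM (the count relative to the library size), while ERBB2 had 48.3 CPM in the parental library and 55.6 to 106 CPM in the clones. The mesenchymal markers VIM, CD44 and FN1 summed to 4264 CPM in the parental library and to 6588 to 7035 CPM in the clones. Of the epithelial markers, KRT18 was at 303 CPM in the parental library and 326 to 467 CPM in the clones, while CDH1 and EPCAM stayed under 0.5 CPM in all 4 libraries. Of 3 markers of immune cells, CD3E had at most 8 counts, CD14 was at 12.8 CPM in the parental library and 2.29 to 11.3 CPM in the clones, and PTPRC was at 4.45 CPM in the parental library and 41.7 to 105 CPM in the clones, so that the list summed to 17.3 and to 53.0 to 109.7 CPM. Of the endothelial markers, PECAM1 was at 16.1 CPM in the parental library and 7.06 to 13.9 in the clones, while CDH5 had 1 count in parental cells against 12 (clone 1), 372 (library labelled clone 5) and 16 (clone 6). Of the immune and endothelial markers 1, PTPRC, met the criterion described in the next paragraph. Its log2 fold change was 4.01 (SE 0.56, adjusted p = 0.282 in edgeR's test and 1.3e-06 in DESeq2's Wald test). The part of PTPRC in the results that follow was not tested.

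Levels are given as CPM on the library size scaled by edgeR's TMM method, and a log2 fold change is that of the fitted clone mean over the parental library, negative where the clones were lower. Only the 3 clones gave an estimate of the spread (2 residual degrees of freedom), which the test applies to the parental cells as well. The test drew the estimate of each gene towards the trend over all genes (2.75 prior degrees of freedom). A gene is said to meet the criterion when its unadjusted p in edgeR's quasi-likelihood test was under 0.05 and its log2 fold change was above 1 or below -1. By this criterion 9.58% of the 22511 genes (2157) differed, 5.34% (1202) being lower and 4.24% (955) higher in the clones. Which direction held more genes was not stable, since there were 1002 lower and 1124 higher genes with upper quartile scaling, 1184 and 1675 in DESeq2 with its own scaling and filter, and 1608 and 1791 without clone 1. With Benjamini-Hochberg adjustment over all genes tested, 1 gene (0.00444%) had an adjusted p under 0.05, and it is none of the 10. The median log2 fold change over all genes tested was 0.096.

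Of the 10 members 8 met the criterion, all with a lower level, against 5.34% of all tested genes in that direction. They were 3 of the 5 subunits and all 5 inhibitors, and the median log2 fold change over the 10 members was -1.63. Because the members were chosen with earlier results of these data known, their counts beside those of all genes are a description. In edgeR's test the adjusted p of the members ran from 0.275 to 0.659, so that 0 of 10 passed 0.05, while 8 passed it without adjustment. In DESeq2's Wald test 3 members, NFKBIA, NFKBIB and NFKBIZ, had an adjusted p under 0.05, while 2.15% of the 18749 genes with an adjusted p in that test were called lower. All 3 clones lay below the parental library for 10 of 10 members and for 30.5% of all tested genes. In 6 of the 10 members all 3 clones were lower by over 1 on the log2 scale, against 6.29% of all tested genes. Without the library labelled clone 5, and likewise without clone 6, 6 members met the criterion, the lost ones being NFKB2 and NFKBIE, and without clone 1 all 8 did. In bulk RNA, a smaller share of cells with a transcript and less of it per cell cannot be told apart.

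**Figure D1:**
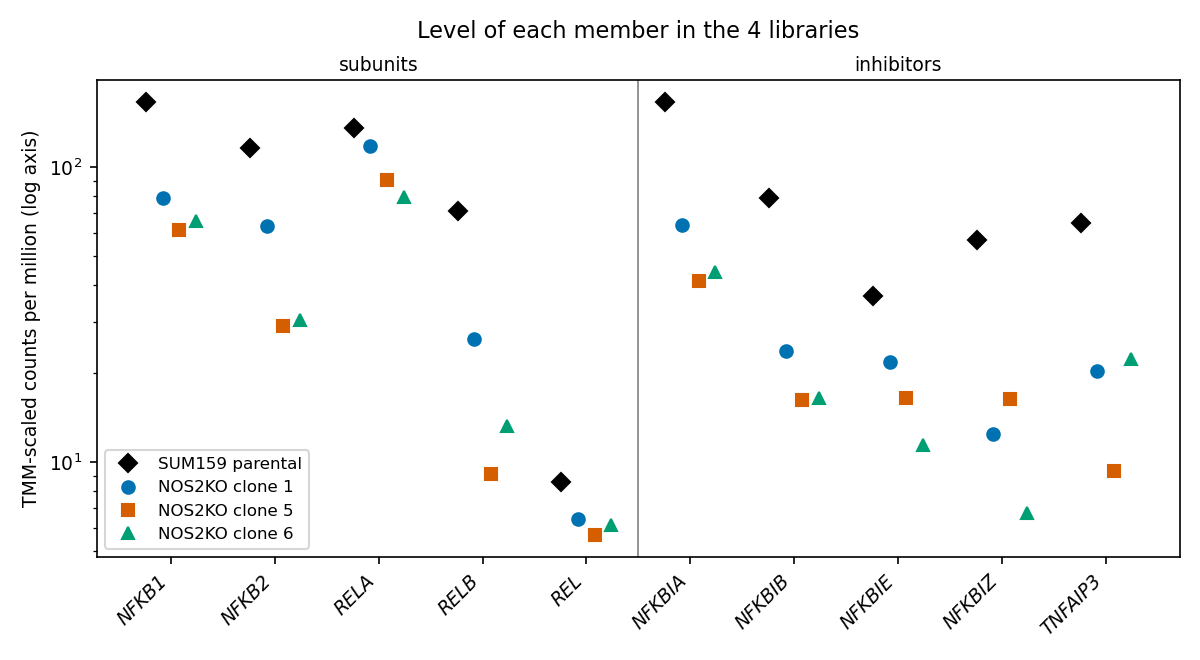
Level of each of the 10 members (TMM-scaled CPM, log axis) in the parental library (diamonds) and in NOS2KO clones 1, 5 and 6 (circles, squares and triangles), 1 point per library. The parental point is the highest for every gene, the distance is smallest for RELA and REL, and NFKBIZ in clone 6 and TNFAIP3 and RELB in the library labelled clone 5 lie lowest relative to it.

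Among the subunits, NFKB1 (ENSG00000109320, chromosome 4 from 102501329 to 102617302, plus strand), the gene of p105 and p50, had 166.6 CPM in parental cells against 78.9 (clone 1), 61.0 (library labelled clone 5) and 65.8 (clone 6). The clones lay close together, at 68.6 ± 9.24 (SD, n = 3), and all were far below the parental library. The log2 fold change was -1.28 (SE 0.29, adjusted p = 0.327), and the criterion was met.

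NFKB2 (ENSG00000077150, chromosome 10 from 102394110 to 102402529, plus strand) encodes p100, the precursor of p52 and itself an inhibitor of RELB dimers. It had 115.9 CPM in parental cells against 63.1 (clone 1), 28.9 (library labelled clone 5) and 30.3 (clone 6). Clone 1 held over 2 times the level of the other clones, and the log2 fold change was -1.51 (SE 0.55, adjusted p = 0.397). The criterion was met with an unadjusted p of 0.034, and missed without the library labelled clone 5 (an unadjusted p of 0.061) and without clone 6 (0.074).

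RELB (ENSG00000104856, chromosome 19 from 45001430 to 45038198, plus strand), the partner of p52 in the non-canonical pathway, had 71.3 CPM in parental cells against 26.2 (clone 1), 9.16 (library labelled clone 5) and 13.3 (clone 6). It was the subunit with the largest difference, 2.72-fold lower in clone 1, 7.78-fold lower in the library labelled clone 5 and 5.37-fold lower in clone 6. The log2 fold change was -2.14 (SE 0.64, adjusted p = 0.345), and the criterion was met.

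RELA (ENSG00000173039, chromosome 11 from 65653596 to 65663094, minus strand), the p65 subunit of the canonical dimer, had 136.0 CPM in parental cells against 118.1 (clone 1), 90.7 (library labelled clone 5) and 79.1 (clone 6). All clones were below the parental library, clone 1 by the least. The log2 fold change of -0.50 (SE 0.34, adjusted p = 0.592) did not meet the criterion. REL (ENSG00000162924, chromosome 2 from 60881521 to 60931610, plus strand), the c-Rel subunit best known from lymphocytes, had 8.57 CPM in parental cells against 6.41 (clone 1), 5.66 (library labelled clone 5) and 6.14 (clone 6). It had the lowest counts of the 10 members (603 to 775), and its log2 fold change of -0.50 (SE 0.41, adjusted p = 0.659) did not meet the criterion. Of the exon bases of REL 50.7% (5702 of 11255) are shared with AC010733.2 on the same strand, which had 0 counts in every library, and how reads on shared bases were counted is not given in the sources used here.

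The inhibitors had the same direction, with a median log2 fold change of -1.89 beside -1.28 for the subunits. The single values of the 2 groups overlapped, and the difference between the groups was not tested. NFKBIA (ENSG00000100906, chromosome 14 from 35401511 to 35404749, minus strand) encodes IkappaB alpha, which retains RELA dimers in the cytoplasm and is quickly resynthesised after activation. It had 166.8 CPM in parental cells against 63.9 (clone 1), 41.1 (library labelled clone 5) and 44.3 (clone 6). The clones were 2.61-fold to 4.06-fold lower, and the fitted log2 difference was -1.74 (SE 0.36, adjusted p = 0.306 in edgeR and 0.031 in DESeq2).

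NFKBIB (ENSG00000104825, chromosome 19 from 38899700 to 38908893, plus strand), the gene of IkappaB beta, had 78.7 CPM in parental cells against 23.8 (clone 1), 16.2 (library labelled clone 5) and 16.6 (clone 6). The library labelled clone 5 and clone 6 were alike and clone 1 held more, the clones being at 18.9 ± 4.31 (SD, n = 3). NFKBIB had the smallest p of the 10 members in edgeR's test (unadjusted p = 0.0018). The fitted log2 difference was -2.06 (SE 0.36, adjusted p = 0.275 in edgeR and 0.0047 in DESeq2). Of its exon bases 1.72% overlap SIRT2 on the other strand, and how strand was treated in counting is not given in the sources used here.

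NFKBIE (ENSG00000146232, chromosome 6 from 44258166 to 44265788, minus strand), the gene of IkappaB epsilon, had 36.7 CPM in parental cells against 21.8 (clone 1), 16.6 (library labelled clone 5) and 11.4 (clone 6). It was the inhibitor with the smallest difference, a log2 fold change of -1.15 (SE 0.45, adjusted p = 0.424). The criterion was only just met, with an unadjusted p of 0.045, and 5 of 11 other settings put the p above 0.05 (0.0505 to 0.095).

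NFKBIZ (ENSG00000144802, chromosome 3 from 101827991 to 101861022, plus strand) encodes IkappaB zeta, an atypical nuclear member that also serves as a coactivator at genes such as LCN2. It had 56.6 CPM in parental cells against 12.4 (clone 1), 16.4 (library labelled clone 5) and 6.73 (clone 6). Here clone 6 was lowest and the library labelled clone 5 highest of the clones. The log2 fold change of -2.25 (SE 0.55, adjusted p = 0.327, and 0.025 in DESeq2's Wald test) was the largest of the 10 members.

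TNFAIP3 (ENSG00000118503, chromosome 6 from 137867188 to 137883312, plus strand) encodes A20, a ubiquitin-editing enzyme that shuts down signalling to the IkappaB kinase complex. It had 64.5 CPM in parental cells against 20.4 (clone 1), 9.33 (library labelled clone 5) and 22.3 (clone 6). Clone 1 and clone 6 were alike and the library labelled clone 5 held less than either. The log2 fold change was -1.89 (SE 0.56, adjusted p = 0.344), and the criterion was met. Of the exon bases 1.88% overlap the antisense gene AL357060.1.

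**Figure D2:**
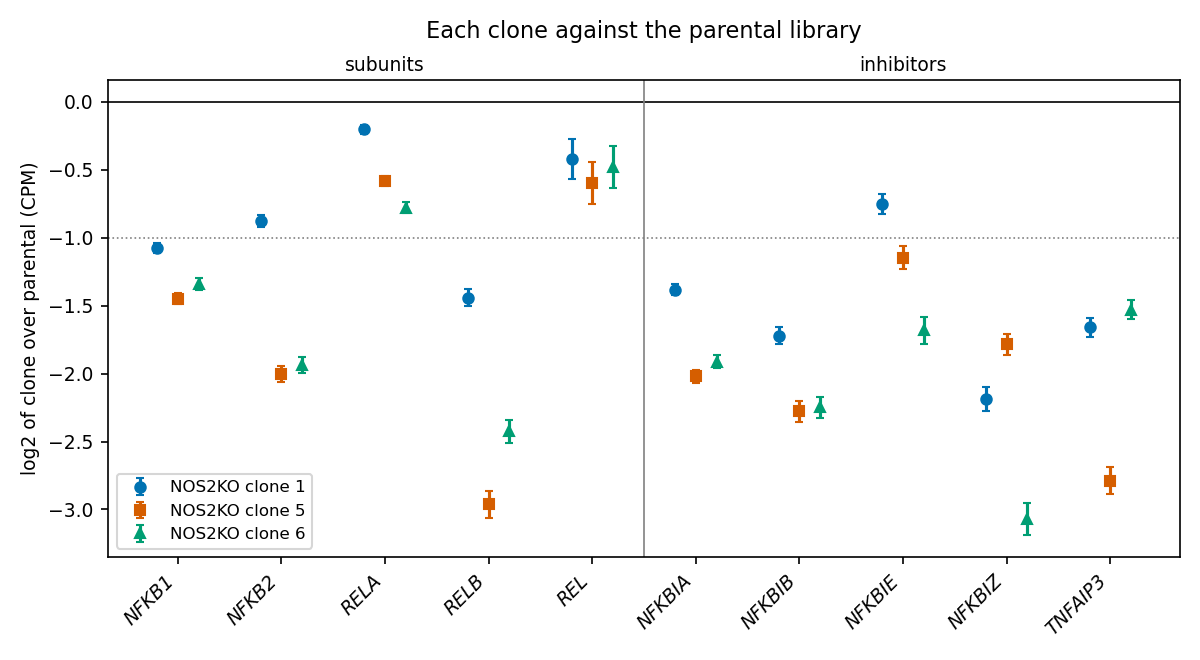
Log2 ratio of the CPM in each NOS2KO clone to that in the parental library for the 10 members, with exact 95% intervals that cover counting error only, and a dotted line at -1. All 30 ratios lie below 0, from -0.20 (RELA in clone 1) to -3.07 (NFKBIZ in clone 6).

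The clones were not equal. Clone 1 had a median log2 ratio of -1.23 over the 10 members, the library labelled clone 5 one of -1.89 and clone 6 one of -1.80, as seen in the plot of ratios by clone. Clone 1 held the highest level of the 3 clones for 8 members, the exceptions being NFKBIZ and TNFAIP3. The library labelled clone 5 was lowest for 7 members, and clone 6 was lowest for RELA, NFKBIE and NFKBIZ. The 3 ratios of a gene share the parental library, so they are not independent of each other.

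Levels of different genes were compared as CPM per kilobase of exon length. In the parental library NFKBIA was highest with 70.3, followed by NFKBIB with 33.8, NFKB1 with 26.6, NFKB2 with 25.9, RELA with 24.9, RELB with 23.5, NFKBIE with 14.2, TNFAIP3 with 12.8, NFKBIZ with 9.59 and REL with 0.762. In the clones the order by the mean was NFKBIA (21.0 ± 5.20, SD, n = 3), RELA (17.6 ± 3.66), NFKB1 (10.96 ± 1.48), NFKB2 (9.09 ± 4.32), NFKBIB (8.12 ± 1.85), NFKBIE (6.43 ± 2.01), RELB (5.34 ± 2.94), TNFAIP3 (3.44 ± 1.39), NFKBIZ (2.01 ± 0.825) and REL (0.539 ± 0.034). RELA had the fifth place in the parental library and the second in the clones, and NFKBIB the reverse. Among neighbours in the order of the clones, the ranges did not overlap for RELA against NFKB1 and for NFKBIZ against REL, and the other neighbours overlapped. When REL was given over its unshared exon bases alone, it was at 1.54 CPM per kilobase in the parental library and 1.02 to 1.15 in the clones, which overlaps the range of NFKBIZ (1.14 to 2.78).

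The make-up of the subunit transcripts differed between the parental library and the clones. RELA made up 24.5% in the parental library, 37.6% in clone 1, 45.7% (library labelled clone 5) and 39.5% (clone 6), while its own level was lower. RELB went the other way, from 23.1% to 15.0%, 8.31% and 11.9%, or from 14.3% to 8.96%, 4.68% and 6.82% when levels were not divided by exon length. In the same order of libraries, the share of NFKB2 per kilobase went from 25.4% to 24.5%, 17.7% and 18.4%. The share of NFKB1 in the parental library (26.2%) lay inside the range of the clones (21.9% to 28.7%). In these shares REL was taken over its full exon length, including the bases shared with AC010733.2. Without REL, the share of RELA was 24.7% in the parental library and 37.9% to 46.4% in the clones. The 5 inhibitors summed to 1.38 times the 5 subunits per kilobase in the parental library and to 0.901, 0.974 and 0.976 times in clone 1, the library labelled clone 5 and clone 6. The 3 classical inhibitors NFKBIA, NFKBIB and NFKBIE together held 4.76 times the RELA level in the parental library and 2.11, 1.85 and 2.09 times in the clones. With 1 library against 3 an exact permutation test cannot give a p under 0.25, so these shares and ratios are given as a description, and mRNA levels do not measure the proteins.

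**Figure D3:**
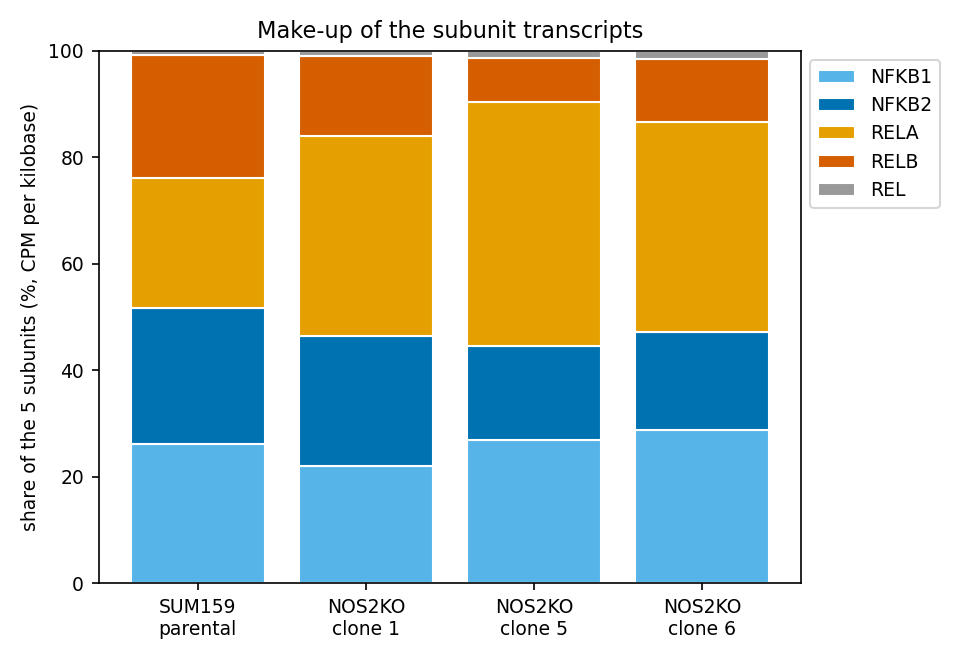
Share of each of the 5 subunits in their summed level (CPM per kilobase of exon, in %) in the parental library and the 3 NOS2KO clones, 1 stacked bar per library. The RELA segment is 24.5% in the parental bar and 37.6% to 45.7% in the clones, and the RELB segment 23.1% and 8.31% to 15.0%. REL, taken over its full exon length with shared bases included, stays under 2%.

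Genes of the steps before the subunits, other feedback genes and targets of the pathway were taken from lists chosen with earlier results of these data known. Of 26 upstream genes, all tested, 3 (11.5%) met the criterion with a lower level, beside 5.34% of all tested genes, and none with a higher level. The median log2 fold change of the 26 was -0.29, beside 0.096 over all genes tested. The 3 were IRAK2, a kinase of interleukin-1 and Toll-like receptor signalling, RBCK1, the HOIL-1 subunit of the linear ubiquitin ligase complex, and TRAF3, an adaptor that restrains the non-canonical pathway. IRAK2 had 51.5 CPM in parental cells against 7.75 (clone 1), 4.70 (library labelled clone 5) and 5.19 (clone 6), a log2 fold change of -3.13 (SE 0.42, adjusted p = 0.259). RBCK1 went from 595 CPM to 130, 141 and 163 CPM in clone 1, the library labelled clone 5 and clone 6 (log2 fold change -2.04, SE 0.30, adjusted p = 0.261). TRAF3 was at 227 CPM in the parental library and at 92.5, 48.2 and 73.3 CPM in the same order of clones (log2 fold change -1.67, SE 0.43, adjusted p = 0.332). In DESeq2's Wald test 2 of the 26, IRAK2 and RBCK1, had an adjusted p under 0.05, both with a lower level. Of all genes with an adjusted p in that test, 2.15% were called lower.

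The kinases that phosphorylate the inhibitors, CHUK and IKBKB, had log2 fold changes of -0.17 and 0.09 and their regulatory subunit IKBKG -0.60, and none of the 3 met the criterion. IKBKB was at 55.9 CPM in the parental library, inside the range of the clones (29.9 to 89.0 CPM). RNF31 and SHARPIN, the partners of RBCK1 in its complex, had log2 fold changes of 0.29 and -0.04 and did not meet the criterion. MYD88, the adaptor of the same receptors as IRAK2, was at 24.3 CPM in the parental library and 41.0 to 52.6 CPM in the clones, and its log2 fold change of 0.90 stayed under the limit of 1. These genes were named after their values had been seen.

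Of 18 other feedback genes 17 were tested, since TNFAIP8L2 did not pass the filter, and 3 (17.6%) met the criterion with a lower level, beside 5.34% of all tested genes, and none with a higher level. The list had a median log2 fold change of -0.41, beside 0.096 over all genes tested. ZC3H12A, the regulatory RNase Regnase-1, had 188 CPM in parental cells against 34.3 (clone 1), 47.2 (library labelled clone 5) and 23.6 (clone 6) (log2 fold change -2.43, SE 0.45, adjusted p = 0.275). TNIP1 and TNIP3, partners of A20, differed by -1.31 (SE 0.48, adjusted p = 0.402) and -2.25 (SE 0.57, adjusted p = 0.332) on the log2 scale. In DESeq2's Wald test 2 genes of the list, ZC3H12A and TNIP3, had an adjusted p under 0.05, both with a lower level. Called lower in that test were 2.15% of all genes with an adjusted p. BCL3, an atypical nuclear relative of the inhibitors, was at 89.6 CPM in the parental library, inside the range of the clones (77.4 to 103 CPM), and was named after its values had been seen. Without the library labelled clone 5, and likewise without clone 6, 2 genes of this list met the criterion.

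Of 32 listed targets 31 were tested, CCL2 not having passed the filter, and 15 (48.4%) met the criterion with a lower level, beside 5.34% of all tested genes, and none with a higher level. The median log2 fold change of the 31 was -2.32, beside 0.096 over all genes tested. In DESeq2's Wald test 10 targets had an adjusted p under 0.05, all with a lower level. That test called 2.15% of all genes with an adjusted p lower. The 8 with the smallest p were the chemokine genes CXCL1 and CXCL3, the cytokine genes LIF, IL6 and IL1B, the complement factor gene CFB, the mitochondrial superoxide dismutase gene SOD2 and LCN2, the lipocalin gene. CXCL1 went from 8.95 CPM in the parental library to 0.419, 0.460 and 0.314 CPM in clone 1, the library labelled clone 5 and clone 6 (log2 fold change -4.49, SE 0.54, adjusted p = 0.259). IL6 was at 220 CPM in the parental library and at 23.0, 11.6 and 5.51 CPM in the clones in the same order (log2 fold change -4.04, SE 0.79, adjusted p = 0.281). SOD2 was at 2119.7 CPM in the parental library and at 279, 108 and 130 CPM in the clones (log2 fold change -3.62, SE 0.64, adjusted p = 0.275). The log2 fold changes were -4.53 for LIF, -2.20 for CFB, -3.86 for CXCL3, -7.63 for LCN2 and -4.59 for IL1B. LCN2 had only 2 counts each in clone 6 and the library labelled clone 5, so that its fitted value rests on few counts there.

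Of the 31 tested targets, 25 were below the parental library in all 3 clones, beside 30.5% of all tested genes. The 1 target above it in all 3 was TNF, and 5 had a parental level inside the range of the clones. VCAM1, an adhesion molecule of activated endothelium, had 67.8 CPM in parental cells against 13.6 (clone 1), 152 (library labelled clone 5) and 165 (clone 6), and was named after its values had been seen. CCND1, PLAU, TRAF1 and CD83 were the other 4 with parental levels inside the range of the clones. These 4 and TNF were also named after their values had been seen. TNF itself had 5 to 16 counts per library, so that its level could not be compared at this depth.

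**Figure D4:**
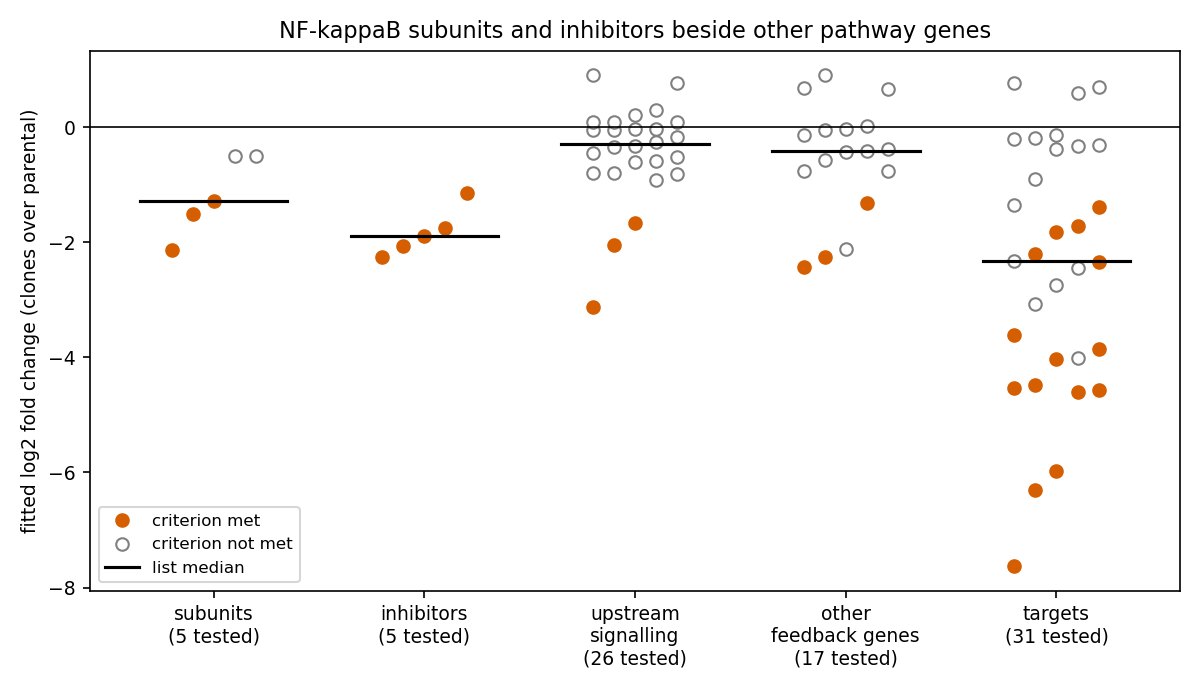
Fitted log2 fold change (clones over parental) of each tested gene of the subunits, the inhibitors, the upstream genes, the other feedback genes and the targets, with filled points for genes that met the criterion, open points for the others and a bar at the median of each list. All filled points lie below 0, and the medians are -1.28, -1.89, -0.29, -0.41 and -2.32.

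The genes whose pattern lay nearest to 2 of the inhibitors were found by the Euclidean distance over the 3 log2 ratios of clone to parental library, among 9828 genes with a mean of at least 10 CPM. Nearest to NFKBIA were TAF4B (distance 0.088), PNO1 (0.160) and UPP1 (0.184). TAF4B had ratios of -1.42, -2.05 and -1.99 in clone 1, the library labelled clone 5 and clone 6, beside -1.38, -2.02 and -1.91 for NFKBIA. Nearest to TNFAIP3 were SH2B2 (0.386), SH3RF3 (0.449) and C3 (0.469), the last of which is also on the list of targets. Of the other members at this level, which REL did not reach, NFKB2 came nearest to NFKBIA, in place 71, and RELA was farthest, in place 2117. All these ratios share the parental library, and the distances are a description over 3 clones.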

How the data were processed

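RNA-sequencing of 1 parental SUM159 library and 3 NOS2KO clone libraries was analysed. Per the labels, poly(A)-selected mRNA went into libraries of a NEBNext Ultra II RNA kit and read as paired ends. The authors deposited raw counts per gene for 57500 genes, without normalization, with coordinates and exon length. The submitters' processing notes name bcl2fastq 2.17, Trimmomatic 0.36, STAR 2.5.2b, featureCounts of Subread 1.5.2, DESeq2 and GRCh38, and the strand setting is not given in the sources used here. GENCODE release 29 gave symbols for 56898 genes and the same coordinates for all 10 members.

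The test was edgeR 4.0.16 under R 4.3.3 (TMM, filterByExpr, glmQLFit, glmQLFTest) with Benjamini-Hochberg adjustment over 22511 genes, and DESeq2 1.42.0 was an alternative. Nothing says that the clones came from repeated cultures, so p-values rest only on the spread between these 3 clones, moderated over all genes. Ratios of single libraries carry exact Clopper-Pearson 95% intervals, which cover counting error only. Other steps ran under Python 3.11.15 with pandas 2.3.3, scipy 1.17.1, numpy 2.4.6 and matplotlib 3.10.9. The code was tested on simulated data.

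The members and lists were chosen with earlier results of these data known. The genes named are the members, NOS2, the cell type markers and the 3 nearest to NFKBIA and to TNFAIP3. Of each list, the genes that met the criterion (at most 8, by the smallest p) and those not tested are named. Other list genes are marked where they were named after their values had been seen. Alternatives were scaling by library size, RLE or upper quartile, no filter, a minimum mean of 1 CPM, DESeq2, robust estimation and each clone left out. The bias-adjusted quasi-likelihood method and the unshared length of REL were added after the data were seen. Protein sequences were not analysed here. Beside the cell type markers named in the text, 1 more is not reported here.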

Additional observations from a re-analysis of the deposited data

How the results depend on the processing

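All 10 members kept a negative log2 fold change in the 11 other settings, and 8 of them kept their side of the criterion in all of these. The number that met the criterion was 6 to 8. NFKBIE missed it with RLE and upper quartile scaling (unadjusted p of 0.0505 and 0.0508), in DESeq2 (0.056) and without the library labelled clone 5 or clone 6, and NFKB2 also missed it in those last 2 settings. Members with an adjusted p under 0.05 numbered 3 in DESeq2 and 0 in the other settings. Over all genes, an adjusted p under 0.05 was found for 6 genes without a filter, 825 in DESeq2, 5 with the bias-adjusted method and 0 with any 1 clone left out. The criterion was met by 1466 to 3399 genes with 1 clone left out, the most without clone 1, and by 641 to 1791 in the higher direction, where DESeq2 gave 1675. With 1 clone left out, 3 to 5 upstream genes were lower, the most without clone 1 (with IRAK1 and TAB3), and without clone 1 the higher genes were 1 of the other feedback genes (PDLIM2) and 1 target (VCAM1), against 0 without the others. With upper quartile scaling 1 upstream gene, MYD88, was higher. The cause of these changes was not tested. In levels not divided by exon length the parental subunit shares were 33.4% for NFKB1, 14.3% for RELB and 1.72% for REL. The median over all genes moved from 0.096 to 0.20 with upper quartile scaling, 0.31 without a filter, 0.31 in DESeq2 and 0.042 with a minimum mean of 1 CPM, while that of the members stayed between -1.97 and -1.43. No paired analysis was possible because there is only 1 parental library and its label carries no clone number. The depth limits LCN2, TNF and NOS2, which had under 20 counts in some or all libraries. Among the targets that met the criterion, IL1A, BCL2A1 and CCL20 also had under 20 counts in some or all clones. These targets, and IRAK1, TAB3 and PDLIM2 above, were named after their values had been seen.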
